A study of Mus musculus with 6 samples.

Results

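The miRNAs examined here are those of the miR-379 to miR-410 cluster, a run of miRNA hairpins in the imprinted Dlk1-Dio3 domain on mouse chromosome 12. The cluster lies distal to the miRNAs between Meg3 and Rian. Every miRNA feature of the count files inside the window that holds the cluster was taken, which gave 77 rows from position 109709065 to 109747949 (GRCm38), a stretch of 38.9 kb. Rows on opposite strands of 1 place, those of miR-299a and miR-299b, held the same counts in every library and were counted once. From this, counts were taken to ignore strand, which the labels do not state. The 77 rows then stood for 75 mature miRNAs from 38 hairpins, of 1995 miRNA places in the files. The choice used position only and no measured value, but it was made with earlier results of these data known. Of the 75, 47 had enough reads to be tested, 23 had a mean of at most 9.7 counts per library, and 5 were at 0 counts in each library, which allows up to 3 counts there.

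Small RNA from the hippocampus was sequenced in 6 libraries, each made from the pooled RNA of 3 males of the strain C57BL/6 at 3 months of age. The design text also gives 12 mice per genotype in all, while 3 pools of 3 make 9, and which number holds could not be settled. Every animal was Dicer1 flox/flox and had received tamoxifen 3 weeks before. In 3 libraries the mice also carried CaMKIIa-creERT2, a recombinase that tamoxifen activates and whose promoter works in excitatory forebrain neurons (Dicer1-ifKO). In the other 3 they did not (WT). Cells without the recombinase keep Dicer1 in both groups, and whole hippocampus was used, so fewer cells of a type and less RNA per cell cannot be told apart. The labels call the pools biological replicates, so spread between pools is what each p-value is based on. The Dicer1 transcript span itself held 45, 33 and 47 counts in WT and 37, 32 and 35 in Dicer1-ifKO (log2 change -0.24 ± 0.24 SE, edgeR adjusted p = 0.933). These few reads come from anywhere in the gene, not from the floxed part alone, so they do not check the genotype labels.

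miRNA hairpins of this cluster are cut out of long noncoding RNA that is transcribed from the maternal chromosome, and most strongly in brain. Drosha releases each hairpin, Dicer cuts off its loop, and either the 5p or the 3p arm is loaded into an Argonaute protein as the mature miRNA. The cluster is known for activity-dependent transcription through Mef2 in neurons and for miR-134, which acts at dendritic spines by repressing Limk1. Target choice rests mainly on the seed, bases 2 to 8 of the mature miRNA.

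RefSeq (GRCm38.p6) gave mature sequences for 73 of the 77 rows; miR-376c-3p, miR-487b-3p, miR-539-3p and miR-485-5p had none there. The mature sequences of the 6 members that passed the test are shown first, each 5′ to 3′ with its seed in capitals.
miR-409-3p: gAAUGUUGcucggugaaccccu
miR-543-3p: aAACAUUCgcggugcacuucuu
miR-495-3p: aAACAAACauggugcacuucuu
miR-485-3p: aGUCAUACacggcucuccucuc
miR-300-3p: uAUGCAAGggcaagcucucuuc
miR-410-3p: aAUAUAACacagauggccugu

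These 6 carry 6 different seeds. No other row with a RefSeq sequence has the seed of miR-409-3p, miR-543-3p, miR-485-3p or miR-300-3p, out of 1646 such rows in the files. The seed of miR-410-3p also stands in miR-344d-3p and miR-344e-3p, and that of miR-495-3p in miR-1192. miR-495-3p and miR-543-3p are alike in 18 of 22 bases. Counted from the 5′ end, with the base of miR-495-3p first, they differ by A6U, A7U, A9G and U10C. The most abundant member, miR-381-3p, is a near copy of miR-300-3p, with 19 of 22 bases alike. From miR-300-3p to miR-381-3p the differences are G4A, U21G and C22U, so they differ by 1 base within the seed. miR-379-3p and miR-411-3p share their seed and differ by U10C and U22C. Both pairs are shown for their likeness.
miR-381-3p: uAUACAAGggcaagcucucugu
miR-379-3p: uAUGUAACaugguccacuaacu
miR-411-3p: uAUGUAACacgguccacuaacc

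As a whole the cluster was lower in Dicer1-ifKO. Of all miRNA counts, with each place counted once, its members took 2.94%, 2.84% and 2.87% in the WT libraries (replicates 1 to 3, the order used throughout). In the Dicer1-ifKO libraries they took 2.52%, 2.31% and 2.36%. The shares do not overlap between the groups, and their means were 2.88% ± 0.05 and 2.40% ± 0.11 (SD, n = 3 each). This share does not depend on how miRNAs are scaled against other RNA. Behind it stood 55332 to 89560 counts of members per library. In CPM, the count scaled to a common total of all feature counts after TMM normalization, the tested members summed to 1602, 1686 and 1924 in WT and to 1375, 1164 and 1176 in Dicer1-ifKO. The ratio of the group means was 0.713. Both sums rest on few miRNAs, since miR-381-3p, miR-410-3p, miR-411-5p, miR-541-5p and miR-300-3p held 75.2% to 77.2% of the members' counts in every library.

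Member by member, 6 fell and 0 rose (adjusted p of 0.05 in edgeR's quasi-likelihood test, with Benjamini-Hochberg adjustment over the 6539 features tested). DESeq2 also called 0 members higher, and at an unadjusted p of 0.05 edgeR gave 20 lower and 0 higher. At that unadjusted p, 165 of the 520 tested miRNA places (31.7%) were lower and 10 higher. Of all 6539 features, 423 were lower and 88 higher. The 6 are 12.8% of the 47 tested. Of all 6539 features 0.795% were called lower and 0.0153% higher, and of the 520 tested miRNA places 6.73% were called lower (6.13% with the members left out). The median log2 change of the members was -0.40, against -0.24 for all tested miRNA places and -0.05 for all features. Of the members, 45 (95.7%) lay below 0, against 76.2% of all tested miRNA places and 56.8% of all features. When the miRNA rows set the scaling, 33 members lay below 0. In 21 members (44.7%) every Dicer1-ifKO library lay below every WT library, and in 0 above. Over all features 9.27% lay apart in that way and lower, and 3.73% higher. Over all tested miRNA places 34.6% lay apart and lower (33.6% with the members left out) and 1.92% higher. Of the 21 members, 15 did not pass the test.

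**Figure D1:**
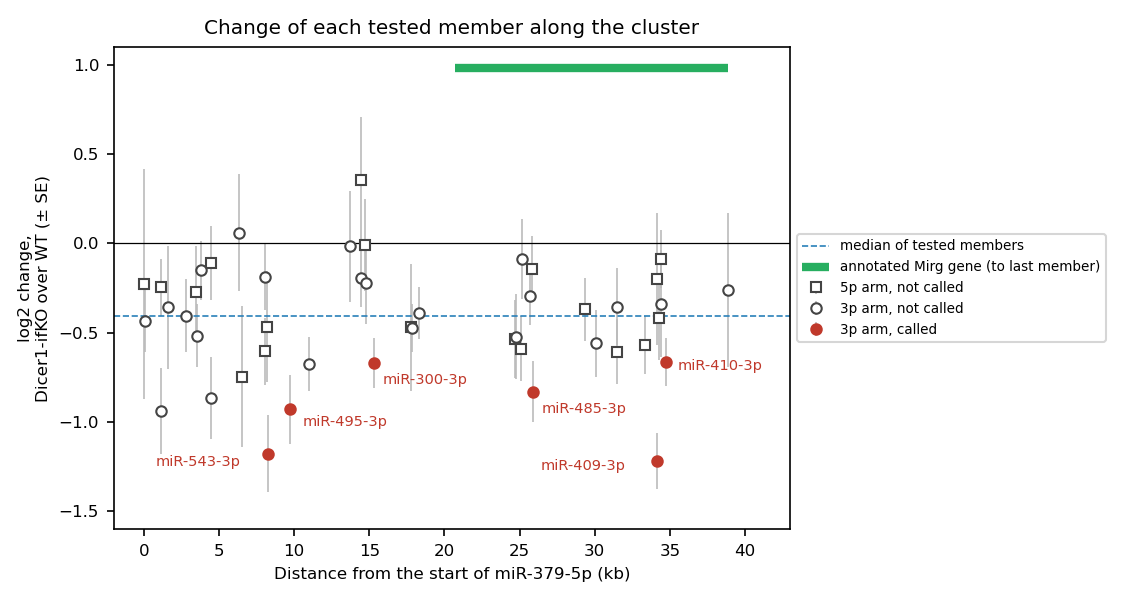
Log2 change of each of the 47 tested members (Dicer1-ifKO over WT, with SE) against the distance from the start of miR-379-5p in kb. Squares are 5p arms, circles 3p arms and filled symbols the 6 called members. The dashed line is the median of -0.40, and the bar is the annotated Mirg gene up to the last member. Called members lie on both sides of the start of Mirg. Below 0 lie 45 members (33 when the miRNA rows set the scaling). That is 95.7% of the members, against 76.2% of all tested miRNA places in the same fit as the 45.

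miR-409-3p fell most. It stood at 46.4, 52.5 and 53.9 CPM in WT and at 24.0, 19.4 and 22.2 CPM in Dicer1-ifKO, from 2272, 2515 and 2506 and from 997, 1031 and 1042 counts. Each Dicer1-ifKO library lay well under the lowest WT library, at a ratio of 0.429 (log2 -1.22 ± 0.16 SE, edgeR adjusted p = 0.0036). It lies at 109743204 to 109743225 (plus strand, as for all members described), within an intron of Mirg, the noncoding host transcript of the distal hairpins (GENCODE M21). It was called under every scaling tried, and with TMM factors from the miRNA rows, all features being fitted, it was the only member called. It was not called without Dicer1-ifKO replicate 2 or 3.

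miR-543-3p, at 109717304 to 109717325 upstream of the annotated Mirg gene, held 5.41, 4.20 and 3.83 CPM in WT and 2.38, 1.48 and 2.09 CPM in Dicer1-ifKO. The groups did not overlap, and the log2 change was -1.18 ± 0.22 (SE, edgeR adjusted p = 0.0232). Its near copy miR-495-3p, at 109718795 to 109718816, held 3.16, 2.32 and 2.58 CPM in WT and 1.44, 1.26 and 1.53 CPM in Dicer1-ifKO. Here too all libraries of one group lay under those of the other (log2 -0.93 ± 0.19 SE, edgeR adjusted p = 0.0441). miR-495-3p is among the less abundant tested members, with a mean of 97.5 counts per library.

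miR-485-3p lies in an exon of Mirg, at 109734946 to 109734967. It held 7.39, 7.31 and 5.96 CPM in WT and 3.90, 3.60 and 4.11 CPM in Dicer1-ifKO (log2 -0.83 ± 0.17 SE, edgeR adjusted p = 0.0433). The groups were apart, with the lowest WT value in replicate 3. The other arm of this hairpin, miR-485-5p, known to repress the synaptic vesicle protein Sv2a, is more abundant. It held 21.6, 34.0 and 32.0 CPM in WT and 25.1, 28.4 and 25.7 CPM in Dicer1-ifKO, and the groups overlapped (log2 -0.15 ± 0.18 SE, edgeR adjusted p = 0.953).

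The other called members are abundant. miR-410-3p, in the hairpin that closes the classical cluster (109743764 to 109743784, in an exon of Mirg), held 275, 321 and 319 CPM in WT and 198, 188 and 191 CPM in Dicer1-ifKO. The Dicer1-ifKO libraries lay close together and under all WT libraries, at a ratio of 0.632 (log2 -0.66 ± 0.13 SE, edgeR adjusted p = 0.0369). miR-300-3p, upstream of Mirg at 109724363 to 109724384, held 159, 169 and 193 CPM in WT and 115, 105 and 108 CPM in Dicer1-ifKO. It changed by -0.67 ± 0.14 on the log2 scale (SE, edgeR adjusted p = 0.0465), close to the threshold.

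**Figure D2:**
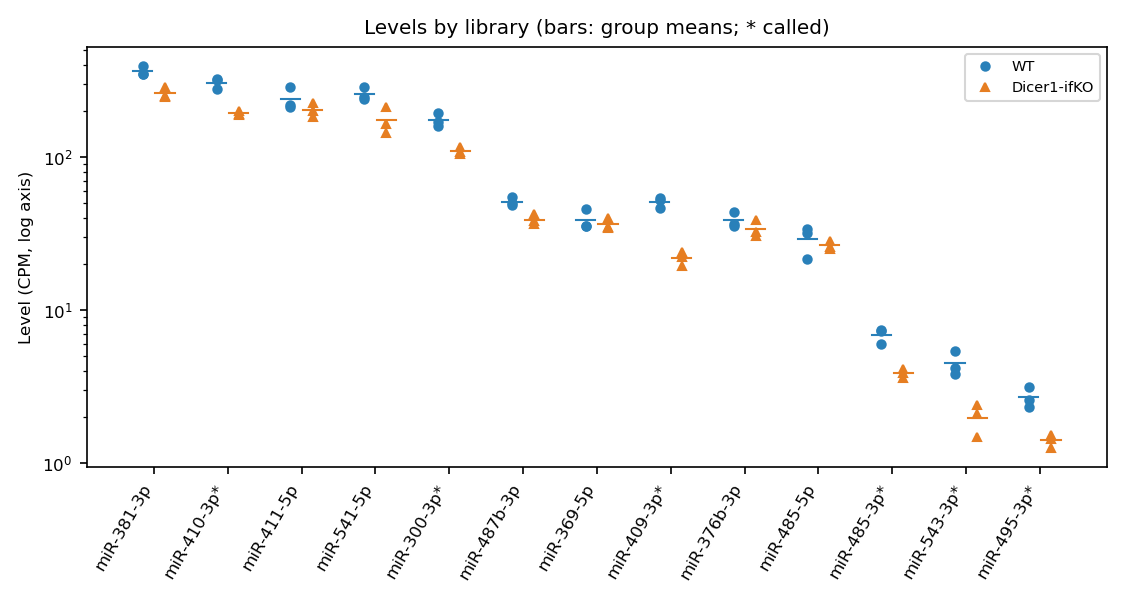
Level in CPM (log axis) of the 6 called members, marked by an asterisk, and of the 10 most abundant members, in each WT library (circles) and each Dicer1-ifKO library (triangles), with group means as bars. The Dicer1-ifKO points of miR-409-3p (19.4 to 24.0 CPM) lie under its WT points (46.4 to 53.9 CPM), while those of miR-411-5p, miR-369-5p, miR-376b-3p and miR-485-5p overlap.

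The other 5 calls depended on the scaling (edgeR adjusted p in each case). miR-300-3p lost its call under each other scaling of the whole table: with RLE size factors (0.108), library totals (0.089), TMM on miRNA rows (0.425), TMM on snoRNA rows (0.0714) and the authors' size factors (0.146). miR-485-3p lost it under the same 5, at 0.0614, 0.171, 0.415, 0.0859 and 0.0663. miR-543-3p and miR-495-3p were not called with library totals (0.124 and 0.19), TMM on miRNA rows (0.199 and 0.39) or TMM on snoRNA rows (0.0714 and 0.101). miR-410-3p was not called with RLE size factors (0.102), TMM on miRNA rows (0.454) or the authors' size factors (0.139). All 6 had log2 changes below 0 in each alternative run.

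The calls also changed with single libraries left out. Without WT replicate 1, 8 members were called: the same 6, and miR-666-5p and miR-667-3p. Without WT replicate 2, and likewise without WT replicate 3, 1 was called, miR-409-3p. Without Dicer1-ifKO replicate 1, 3 were called: miR-409-3p, miR-411-3p and miR-543-3p. Without Dicer1-ifKO replicate 2 or 3, edgeR called 0, with 14 and 15 lower at an unadjusted p of 0.05. The calls over all miRNAs moved as well. Of the 546 tested miRNA rows, 36 were called lower with all libraries. Without WT replicates 1, 2 and 3 in turn this was 63, 11 and 11. Without Dicer1-ifKO replicates 1, 2 and 3 in turn it was 12, 1 and 2.

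Of the other abundant members, 3 lay lower without overlap but did not pass the test. miR-381-3p, the most abundant, held 349, 348 and 391 CPM in WT and 287, 251 and 246 CPM in Dicer1-ifKO (log2 -0.47 ± 0.13 SE, edgeR adjusted p = 0.178). Its near copy miR-300-3p, described above, had a change of -0.67, and the difference between these changes was not tested. miR-541-5p held 239, 246 and 287 CPM in WT and 212, 164 and 144 CPM in Dicer1-ifKO (log2 -0.57 ± 0.16 SE, edgeR adjusted p = 0.185). miR-487b-3p held 2450, 2312 and 2543 counts in WT and 1768, 1928 and 1785 counts in Dicer1-ifKO (log2 -0.39 ± 0.15 SE, edgeR adjusted p = 0.432).

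In the remaining abundant members the groups overlapped. miR-411-5p held 217, 212 and 286 CPM in WT and 224, 181 and 198 CPM in Dicer1-ifKO, with the highest value in WT replicate 3. miR-369-5p held 35.3, 35.3 and 45.3 CPM in WT and 39.9, 34.2 and 34.9 CPM in Dicer1-ifKO. miR-376b-3p held 36.6, 35.6 and 43.8 CPM in WT and 38.9, 30.4 and 32.3 CPM in Dicer1-ifKO. Their log2 changes were -0.25, -0.09 and -0.19, each with an edgeR adjusted p of at least 0.824. When the miRNA rows set the scaling, these were 0.001, 0.16 and 0.05. The minor arm miR-369-3p held 11.5, 9.82 and 15.1 CPM in WT and 14.4, 6.85 and 7.57 CPM in Dicer1-ifKO, with overlap (log2 -0.34 ± 0.30 SE, edgeR adjusted p = 0.925). miR-381-5p, the minor arm of the hairpin that gives the most abundant member, had only 82 counts in all libraries (log2 -0.47 ± 0.36 SE, edgeR adjusted p = 0.902).

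Of the miRNAs that give the cluster its names, miR-134-5p was not abundant. It held 3.14, 2.51 and 3.25 CPM in WT and 1.90, 1.84 and 2.17 CPM in Dicer1-ifKO, from a mean of 117.3 counts per library. Its groups did not overlap, but it did not pass (log2 -0.59 ± 0.18 SE, edgeR adjusted p = 0.235). miR-379-5p, the most upstream member, held 2.24, 2.88 and 4.39 CPM in WT and 5.03, 1.07 and 2.06 CPM in Dicer1-ifKO. Its highest and its lowest value were both in Dicer1-ifKO, and its log2 change of -0.23 carried an SE of 0.64. miR-376a-3p held 2.55, 2.55 and 3.38 CPM in WT and 3.25, 1.73 and 2.32 CPM in Dicer1-ifKO, with overlap (log2 -0.22 ± 0.23 SE, edgeR adjusted p = 0.941). miR-376b-5p was 1 of the 2 members with a change above 0, at 157, 126 and 240 counts in WT and 288, 168 and 188 counts in Dicer1-ifKO, again with overlap (log2 0.36 ± 0.35 SE, edgeR adjusted p = 0.933). Its highest value was in Dicer1-ifKO replicate 1, and without that library the change was -0.04. The other member above 0, named after its values were seen, was miR-494-3p, from 11.5 counts per library on average. The miR-376 hairpins are close copies, with 18 of 21 bases alike between miR-376a-3p and miR-376b-3p (G4A, A13C and G20U). How reads that align to several places were treated is not given in the sources used here, so the levels of single miR-376 members are uncertain.

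Arms of 1 hairpin come from 1 precursor, and their ratio in a library does not depend on scaling. All 6 called members are 3p arms, from 28 tested 3p and 19 tested 5p members. The median log2 change was -0.42 for the 3p and -0.37 for the 5p members. In 14 of the 28 and in 7 of the 19 the groups lay apart and lower. Over both arms together, 34.6% of all tested miRNA places lay so, and 9.27% of all features. Of the 35 hairpins with arms named and at least 60 counts in all, the 3p arm held more counts in 22 and the 5p arm in 13. The ratio of 3p to 5p counts was tested with limma in 135 hairpins of the files with both arms tested, 15 of them in this cluster. It changed in 2 of these 15, miR-409 and miR-411, and fell in both. Of the 135 hairpins 8.89% were called in either direction (5.93% lower, 2.96% higher). The median change of the log2 ratio was -0.24 in the 15 and -0.11 in the 135. The hairpins of both are shown 5′ to 3′, with the 5p and the 3p arm in capitals, at 109743158 to 109743236 for miR-409 and at 109710175 to 109710256 for miR-411, plus strand.
miR-409: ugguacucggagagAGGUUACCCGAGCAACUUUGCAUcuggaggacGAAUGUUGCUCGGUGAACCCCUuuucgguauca
miR-411: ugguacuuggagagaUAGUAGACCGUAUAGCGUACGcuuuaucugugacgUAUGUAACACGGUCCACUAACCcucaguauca

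In miR-409 the 3p count was 9.79, 4.23 and 3.99 times the 5p count in WT and 2.99, 2.03 and 2.42 times in Dicer1-ifKO. The ratio was lower in each Dicer1-ifKO library than in any WT library (log2 difference -1.17 ± 0.30 SE, limma adjusted p = 0.046). WT replicate 1 stood high because of a low 5p count: miR-409-5p held 232, 594 and 628 counts in WT and 334, 507 and 431 in Dicer1-ifKO. Without that library the difference was -0.75 (limma adjusted p = 0.0305). miR-409-5p itself overlapped between the groups (log2 -0.20 ± 0.37 SE, edgeR adjusted p = 0.987).

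In miR-411 the 5p arm dominates, and the 3p count was 0.057, 0.0602 and 0.0539 times the 5p count in WT and 0.0451, 0.0289 and 0.0296 times in Dicer1-ifKO. Again all Dicer1-ifKO ratios lay lower (log2 difference -0.75 ± 0.20 SE, limma adjusted p = 0.046). The minor arm, miR-411-3p, held 12.3, 12.7 and 15.4 CPM in WT and 10.1, 5.22 and 5.85 CPM in Dicer1-ifKO (log2 -0.94 ± 0.24 SE, edgeR adjusted p = 0.141). DESeq2 called it, at an adjusted p of 0.0453. Neither arm ratio was called by limma without WT replicate 2 (adjusted p = 0.127 for miR-409 and 0.139 for miR-411), without Dicer1-ifKO replicate 2 (0.185 and 0.184) or without Dicer1-ifKO replicate 3 (both 0.193). Without Dicer1-ifKO replicate 1 the miR-409 ratio was not called either (limma adjusted p = 0.0714), and without WT replicate 3 those of miR-329 and miR-485 were called as well, 4 in all.

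**Figure D3:**
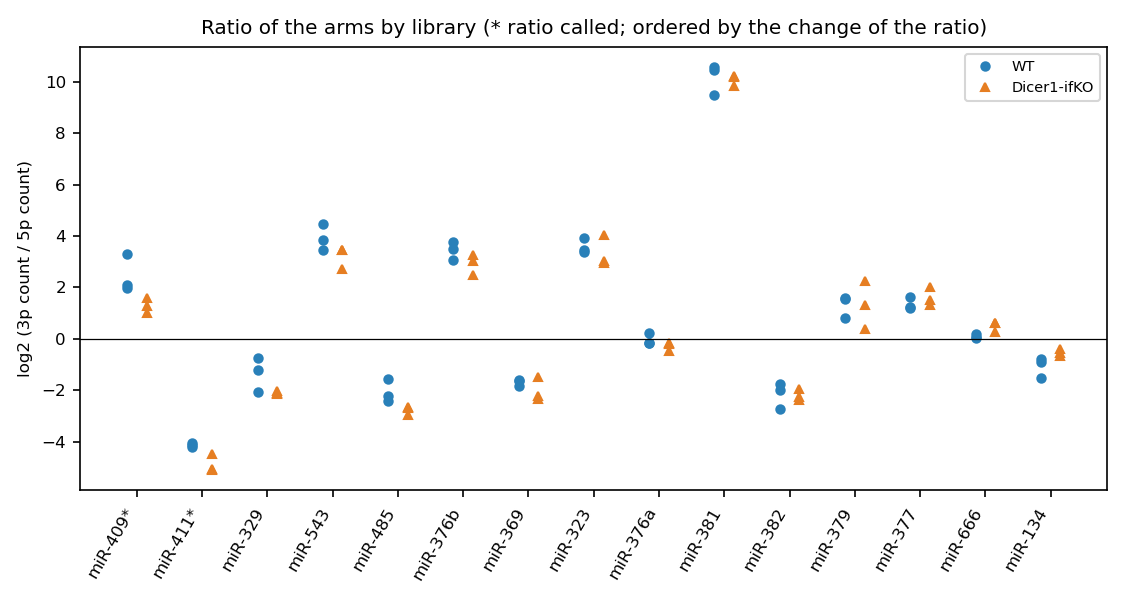
Log2 of the 3p count over the 5p count in each library for the 15 hairpins with both arms tested, ordered by the change of the ratio (WT circles, Dicer1-ifKO triangles). An asterisk marks the called ratios, miR-409 and miR-411, whose Dicer1-ifKO points all lie under the WT points; every hairpin but miR-376a keeps its dominant arm in all 6 libraries.

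The other arm ratios did not pass. In miR-485 the 5p arm held 2.93, 4.65 and 5.36 times the 3p count in WT and 6.44, 7.88 and 6.26 times in Dicer1-ifKO, without overlap (limma adjusted p = 0.0952). In miR-543 the 3p arm held 22.1, 14.4 and 11.1 times the 5p count in WT and 11.0, 6.58 and 10.9 times in Dicer1-ifKO, from only 72 counts of the 5p arm in all libraries (limma adjusted p = 0.257). In miR-134 the 5p arm held 2.91, 1.85 and 1.72 times the 3p count in WT and 1.46, 1.32 and 1.57 times in Dicer1-ifKO, so this ratio moved toward the 3p arm, without overlap (limma adjusted p = 0.182). The arms of miR-666 were nearly equal, with a 3p count of 1.15, 1.01 and 1.04 times the 5p count in WT and 1.53, 1.20 and 1.53 times in Dicer1-ifKO (limma adjusted p = 0.195). In all, the groups lay apart in 4 of the 15 toward the 5p arm and in 2 toward the 3p arm. Over the 135 hairpins these shares were 20% and 13.3%.

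Members on either side of the start of Mirg had similar medians, with no test of the difference. The 24 hairpins upstream of the annotated Mirg gene gave 28 tested members with a median log2 change of -0.40, 3 of them called. The 14 hairpins inside Mirg gave 19 tested members with a median of -0.42, 3 of them called. Spearman's rho of the log2 change with position was -0.05 over the 47 members, and with mean level -0.07. Members share their libraries and their locus, so these values are descriptions. With the GC content of the mature miRNA rho was -0.09 over the 44 tested members with a sequence, against -0.31 over 472 miRNA rows of the files. The called members had a GC content of 36.4% to 54.5%, inside the range of 23.8% to 72.7% of the tested members.

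**Figure D4:**
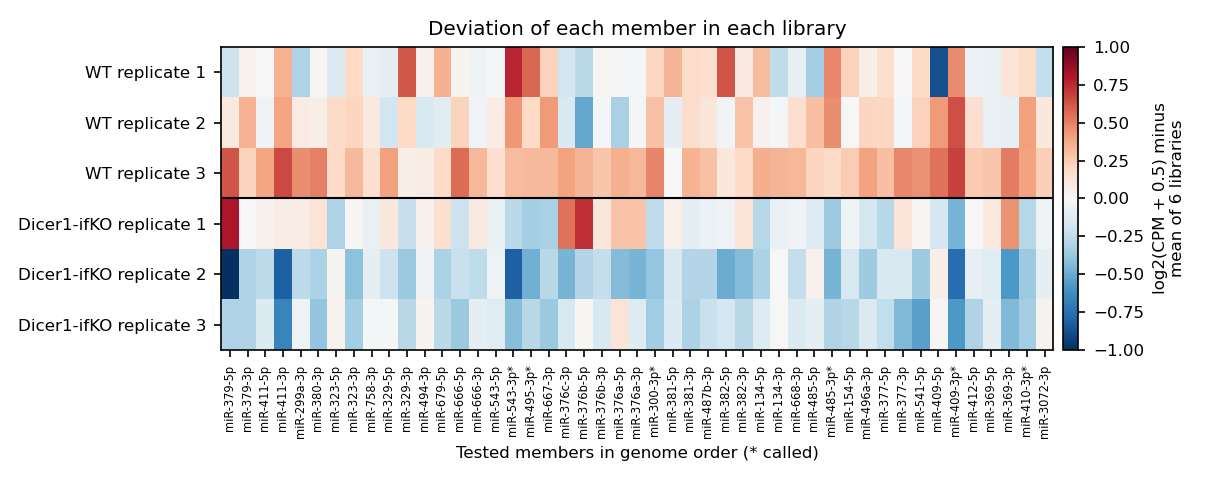
Deviation of log2(CPM + 0.5) of each of the 47 tested members, in genome order, from its mean over the 6 libraries (red higher, blue lower, colours limited to 1 on either side). WT replicate 3 has the highest median deviation (0.33), the called members (asterisks) are low in all 3 Dicer1-ifKO libraries, and Dicer1-ifKO replicate 1 is high for miR-379-5p, miR-376c-3p, miR-376b-5p and miR-369-3p.

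The libraries also differed within a group. The median deviation of the 47 members from their own mean was 0.04, 0.11 and 0.33 on the log2 scale in the WT libraries and -0.04, -0.29 and -0.23 in the Dicer1-ifKO libraries. The closest libraries of the 2 groups, WT replicate 1 and Dicer1-ifKO replicate 1, were less apart than WT replicates 1 and 3.

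Among other RNA of the domain, the proximal miRNAs between Meg3 and Rian had 7 of 24 tested places called lower and 0 higher by edgeR, with a median log2 change of -0.59. DESeq2 called 6 lower and 0 higher, and at an unadjusted p of 0.05 edgeR gave 17 lower and 1 higher. Of all tested miRNA places 6.73% were called lower by edgeR and 31.7% were lower at that unadjusted p. Of all features 0.795% were called lower. In 18 of the 24 the groups lay apart and lower, against 34.6% of all tested miRNA places and 9.27% of all features. Of the C/D box snoRNAs inside Rian, which Dicer does not process, 14 of 23 were tested. By edgeR 0 were called, also 0 at an unadjusted p of 0.05 and 0 by DESeq2, while 1 lay apart and lower, and the median was -0.06. These lists were not tested against the cluster. The Meg3 span, which holds the miR-770 hairpin, counted 323, 309 and 293 in WT and 196, 191 and 240 in Dicer1-ifKO (log2 -0.53 ± 0.18 SE, edgeR adjusted p = 0.308). The Rtl1 span counted 277960, 305013 and 302828 in WT and 187279, 227081 and 214577 in Dicer1-ifKO (log2 -0.48 ± 0.12 SE, edgeR adjusted p = 0.104). It lies within the stretch of the proximal miRNAs, and counts appear to ignore strand, so its reads need not come from Rtl1. The Dlk1 and Dio3 spans held at most 1 count in any library. Values for the Mirg transcript itself were not analysed here.

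Marker miRNAs of the cell types that hippocampal tissue can hold were tested in 34 rows, of which edgeR and DESeq2 called 0. At an unadjusted p of 0.05 edgeR gave 5 lower and 0 higher. The 7 neuronal markers, among them miR-124-3p and miR-9-5p, were all tested and, over all their rows, summed to 3143 to 4043 CPM in WT and 2632 to 3330 CPM in Dicer1-ifKO. The neuronal sums overlapped between the groups. Among neuronal rows the log2 change was -0.43 and -0.52 for miR-128-3p, -0.37 for miR-132-3p and 0.33 to 0.41 for miR-9-3p. It was -0.04 to -0.01 for miR-124-3p, 0.001 to 0.02 for miR-9-5p, -0.06 for miR-137-3p, and -0.20 and -0.18 for miR-138-5p. Of the 5 rows lower at an unadjusted p of 0.05 in edgeR, 2 were neuronal, 2 astrocytic and 1 of the choroid plexus. The 3 astrocyte markers summed to 7813 to 9557 and 6302 to 7098 CPM, and 2 of 3 choroid plexus markers, tested by name, to 319 to 342 and 217 to 236 CPM. The astrocyte and choroid plexus sums lay apart and lower, as the cluster's summed CPM did, but their single markers differed. Among astrocyte markers the log2 change was -0.42 in each row of miR-26a-5p, -0.11 for miR-29a-3p and 0.05 for miR-29c-3p. Among choroid plexus markers it was -0.56 for miR-204-5p and -0.02 for miR-211-5p. Sums of the oligodendrocyte markers (4 of 4 tested) were 218 to 339 and 257 to 349 CPM, and those of vessels (4 of 4) 358 to 588 and 454 to 616 CPM. Microglia and leukocyte markers (2 of 5 tested) summed to 141 to 175 and 176 to 197 CPM, higher without overlap, and erythrocyte markers (2 of 3) to 8.71 to 12.4 and 8.60 to 10.4 CPM. No marker found in the files was at 0 in all libraries, and the part of cell composition in the members' changes was not tested.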

How the data were processed

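Per the labels' protocols, total RNA of 3 mice was pooled per library and sequenced after the Illumina small RNA TruSeq preparation. Tools named in the submitters' processing notes, with no role, are BWA, CASAVA 1.8.2, DESeq2 and SAMtools 0.1.18; the build named is GRCm38. The counter, its strand setting and the handling of multiply aligned reads are not stated in any label or header. The deposited raw column holds whole read counts per feature. The deposited normalized column is a signal, the raw count times 1 constant per library, and served only to recover that constant. Feature counts summed to 55101387 to 77428956 per library, of which miRNA rows held 2318205 to 3179363. Overlapping features share reads, so these sums are not sequencing depth.

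Transcript rows of 1 gene with identical counts entered the fit once. miRNA rows overlapping by at least 10 nt were counted once among members and places, but each was fitted, with 546 miRNA rows tested. All features passing filterByExpr (minimum count 10) were fitted with edgeR 4.0.16 in R 4.3.3 (TMM, glmQLFit with robust estimation, glmQLFTest, Benjamini-Hochberg); DESeq2 1.42.0 was an alternative. Arm ratios, log2((3p + 0.5)/(5p + 0.5)), were fitted with limma 3.58.1 (trend, robust) over 135 hairpins. Both fits were also run on simulated data with changes and spread set beforehand, which does not bear on the calls made here. Values were given for called members, the 10 most abundant, both arms of the 10 most abundant hairpins where tested, and the miRNAs naming the cluster. The other members named were chosen after their values were seen. Members and lists were chosen with earlier results of these data known. Same-numbered libraries of the 2 groups did not consistently deviate together. Their r was -0.229, 0.174 and -0.237 over all features and -0.063, 0.341 and -0.295 over tested miRNA rows. Over miRNA rows, libraries of unlike number reached 0.479. Numbers were therefore not treated as pairs.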

Additional observations from a re-analysis of the deposited data

How the results depend on the processing

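The number of members called lower, 6 by edgeR, was 3 with RLE size factors, 2 on library totals, 1 with TMM on miRNA rows (miR-409-3p), 2 with TMM on snoRNA rows, 3 without a count filter and 3 with the authors' size factors, an alternative chosen after the data were seen. DESeq2 gave 7, a minimum of 50 counts in 3 libraries 4, the miRNA rows alone 5, removal of the GC trend 4, and merged rows 6. Of 546 miRNA rows, edgeR called 36 lower, 31 with RLE size factors, 16 on library totals and 8 with TMM on miRNA rows. It was 22 with TMM on snoRNA rows, 27 with the authors' size factors, 35 with DESeq2 and 26 without the GC trend. The miRNA rows alone gave 36 lower and 11 higher. Without a count filter 27 of 1251 were lower, with the 50 count minimum 31 of 395, and merged 35 of 486. Replicate numbers share only a number here. With the replicate block edgeR called 0 members, and 0 with the GC trend removed as well. At an unadjusted p of 0.05 these 2 fits gave 19 and 21 members lower. Of the 546 tested miRNA rows they called 3 and 2 lower. The arm ratio count of 2 became 1 with the block, miR-409. No fit called a member higher. Leaving out each library in turn gave 0 to 8 called members, a median of -0.55 to -0.27, a difference in share of -0.55 to -0.44 percentage points and 0 to 4 called arm ratios. TMM on miRNA rows moved the median of all features from -0.05 to 0.19 and that of all miRNA rows from -0.24 to 0.001. The members' median was then -0.16, as in the fit of miRNA rows alone. The difference in share of miRNA counts, -0.48 percentage points, was -1.28 without the 10 most abundant miRNAs, a smaller denominator.

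Among members that did not pass in any of these fits, some changed sign. With TMM on miRNA rows the log2 changes were 0.001 for miR-411-5p, 0.047 for miR-376b-3p, 0.014 for miR-376a-3p, 0.106 for miR-485-5p, 0.083 for miR-409-5p and 0.157 for miR-369-5p. The fit of miRNA rows alone gave 0.001, 0.047, 0.011, 0.107, 0.083 and 0.157 in the same order. Leaving out each library gave -1.02 to 0.185 for miR-379-5p, -0.036 to 0.731 for miR-376b-5p, -0.482 to 0.006 for miR-376a-3p, -0.523 to 0.105 for miR-409-5p and -0.162 to 0.089 for miR-369-5p. The cause of these moves was not tested. The 28 members with too few reads for the test, 5 of them at 0 in every library, have no fitted value here.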
